A study of Talinum fruticosum with 24 samples.

Results

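AP2/ERF transcription factors were followed in fully grown leaves of Talinum triangulare (Talinum fruticosum in the organism label), a herb that changes from C3 photosynthesis to crassulacean acid metabolism (CAM) when water is short. A gene was taken as a member when the short description in the deposited table, which lists 22079 Arabidopsis thaliana identifiers, held 1 of 6 phrases for an AP2/ERF domain protein. The phrases matched 71 identifiers, of which 1 was left out by the rule, so that 70 members of the 22079 genes remained. Most members, 60 of 70, carry the description "Integrase-type DNA-binding", and 1, 4, 3 and 2 came from the phrases naming an ethylene response factor, an ethylene responsive element binding factor, the same with a hyphen, and an ERF domain protein. The phrase "DRE-binding" matched 0 rows. Another 29 AP2/ERF genes of the table, known by identifier, are described in other words and are no members, among them RAP2.12, DREB2B, RAV1 and TEM1.

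All plants were grown with full water for 28 d and then droughted for 12 d. Leaves in mode CAM were taken at the end of these 12 d of drought, and leaves in mode reC3 after a further 2 d of re-watering, so that every group had been through the drought. Zeitgeber times of harvest in each mode were 6 h for midday (MD), 12 h for the day's end (ED), 18 h for midnight (MN) and 24 h for the night's end (EN), with 3 biological replicates in each of the 8 groups. Leaves without drought were not among the groups, so photosynthetic mode and water supply cannot be told apart, nor a rise in CAM from a fall after re-watering. The labels trace the MD and MN libraries to a previous series, and only those of ED and EN were made for the present one. Times of different sets therefore cannot be told apart from the sets themselves.

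AP2/ERF factors are among the largest families of plant transcription factors. Each binds DNA through the AP2 domain that gives the family its name. The DREB branch, known for dehydration and cold, binds the DRE/CRT element of drought and cold responsive promoters. The ERF branch, first found downstream of ethylene, binds the GCC box and includes activators, repressors with an EAR motif, factors that are broken down in the presence of oxygen, and factors of the cuticle. Members with 2 AP2 domains act in flower, ovule, embryo and seed development, and WRI1 among them switches on fatty acid synthesis in Arabidopsis. In leaves of many plants members of the family respond to drought, ethylene, abscisic acid and flooding.

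Libraries held 4310225 to 8756145 counts. Across genes, libraries of a group correlated at 0.941 to 0.986 on average with their partners, reC3 EN replicate 1 being lowest, and the scaling factors ran from 0.608 in reC3 EN to 1.43 in reC3 ED. Levels in CPM (counts scaled to a common library total) depend on transcript length, so levels are compared between groups. Counts of a pair of genes are set in ratio only to show how far that ratio varies over the groups. Reads of a Talinum transcript were assigned to Arabidopsis identifiers, and close relatives within the family can share them. Since whole leaves were used, fewer cells of a type and less RNA per cell cannot be told apart. Vascular markers moved with mode: all 5 fell in CAM in the average of the times, with a summed level of 91.4 to 322 CPM in CAM libraries against 449 to 1265 CPM in reC3 libraries. Of 5 markers of dividing cells 4 fell in the average, with sums of 12.4 to 26.7 CPM against 20.7 to 158 CPM, and MCM2 was at 0 in CAM EN. Of all genes 32.5% were called lower in the average. The sums of dividing cell markers stood apart at MD and ED. They overlapped at MN (12.7 to 21.1 CPM in CAM, 20.7 to 25.3 in reC3) and EN (23.3 to 26.7 and 22.9 to 40.2). At MN 2 of the 5 were called lower (20.5% of all genes). At EN 3 were lower and PCNA1 was higher (29.2% and 24.1% of all genes). The 3 mesophyll markers present in the table were not called in the average and summed to 14070 to 179700 CPM over the libraries, so that defining genes of the labelled tissue were present throughout. Their sums differed by mode at ED (30320 to 46210 CPM in CAM, 14070 to 24550 in reC3) and EN (68290 to 87610 and 110000 to 179700). RCA was called lower in CAM at MD and higher at ED, and RBCS1A and LHCA1 lower at EN. The interaction of mode and time was called for all 3. The part of these markers in the results below was not tested.

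Of the 70 members 43 had enough counts to be tested and 27 did not, 6 of them without a single count and the other 21 with at most 130 counts over all 24 libraries. Among the untested were ABI4, an abscisic acid response regulator of seeds, with 10 counts, DDF1 with 8, HRD with 3, ESR1 with 3 and PUCHI with 0. In the average of the 4 differences between modes (CAM minus reC3), 9 of the 43 tested members were higher in CAM, where 32.3% of all tested genes were called higher, and 14 were lower, where 32.5% of all genes were. The lower share, 32.6% of members, was thus close to that of all genes, and the higher share, 20.9%, was below it. With a change of at least 2-fold asked for as well, 5 members were higher (11.6%, and 5.72% of all genes) and 9 were lower (20.9%, and 13.6% of all genes). Of the 5, AT1G72570, AT1G75490 and BBM had enough counts to be tested only through CAM libraries. Of the 9, AT1G77200, AT2G25820, AT2G44940 and AT3G16280 had enough only through reC3 libraries. Both counts are thus in part fixed. The median of the members was -0.24 on the log2 scale, against 0.01 over all genes. Calls are at an adjusted p under 0.05.

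**Figure D1:**
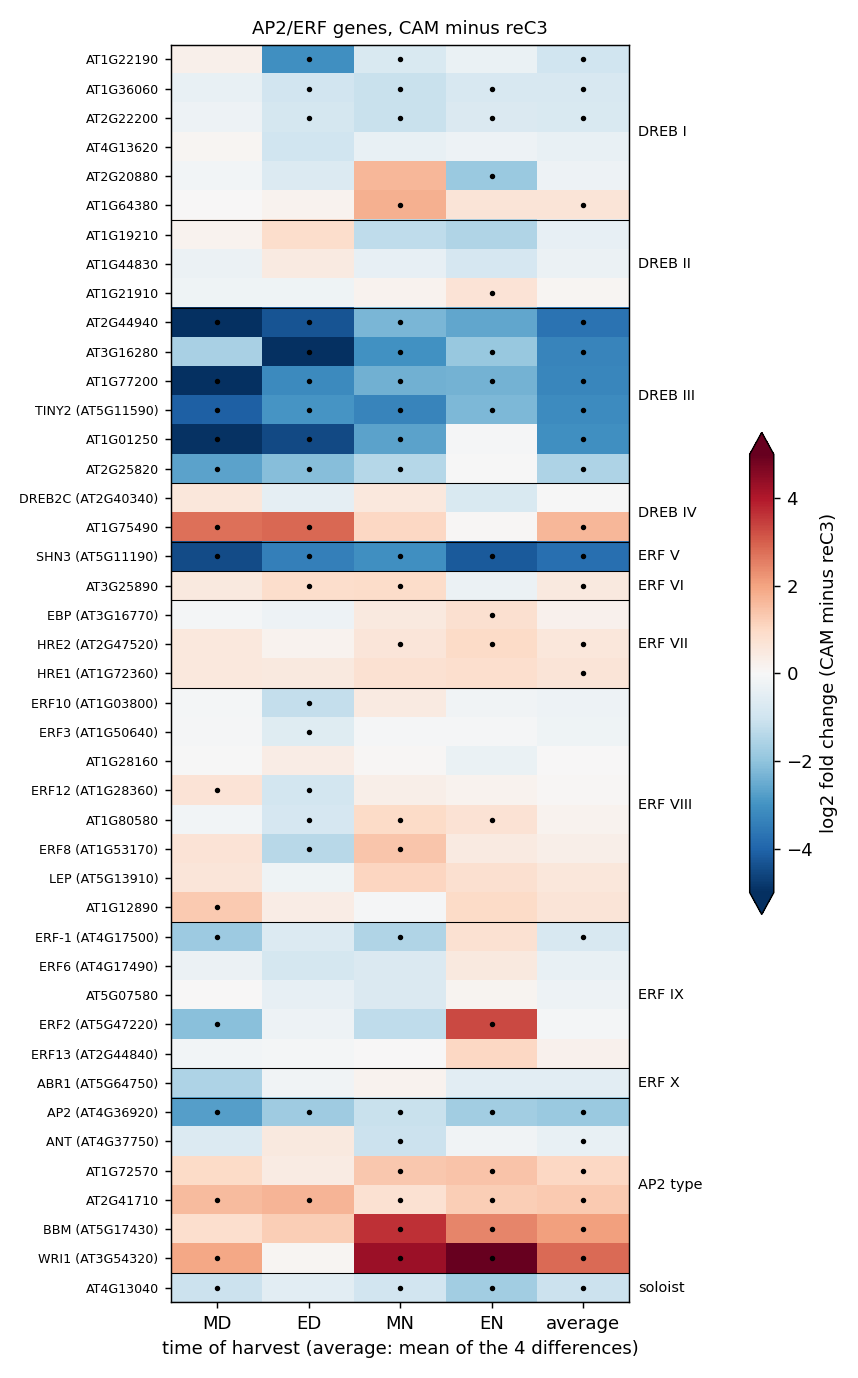
Log2 fold change of CAM against reC3 (colour) of the 43 tested members (rows, by subfamily) at MD, ED, MN, EN and in their average (columns), with a dot where the adjusted p is under 0.05. All 6 tested members of DREB group III and SHN3 are blue in the average and WRI1 is red, while ERF group VIII is mostly blue at ED and red or pale at MN. Fitted values of AT2G44940, AT3G16280, AT1G77200, AT1G19210, AT1G44830, BBM, LEP and ERF2, which have 3 counts or fewer in a group, depend on the fit's prior count.

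By branch, the counts are read against 32.5% of all genes lower and 32.3% higher in the average. Among 17 tested members of the DREB branch 9 fell and 2 rose, with a median of -0.75, and 6 of the 9 that fell belong to group III. Of 19 tested members of the ERF branch 2 fell and 3 rose, with a median of 0.06. The 6 tested members with 2 AP2 domains all changed, 4 up and 2 down, with a median of 1.17. No test of the difference between branches was made. Some members had enough counts to be tested only in the mode where they were higher. Among them are several of group III, which fell, and AT1G72570, BBM and AT1G75490, which rose. The direction of their change is thus in part fixed in these counts and medians.

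DREB group III (8 of its 10 members are listed as A-4 in the table) is the subfamily of TINY2, DDF1 and HRD, of which DDF1 and HRD raise stress tolerance when overproduced in Arabidopsis. It had 10 members, and all 6 that could be tested were lower in CAM in the average, with a median of -3.20 on the log2 scale, or -3.10 with the scarce members at the ratios given below. The other 4 (DDF1, HRD, AT1G33760 and AT1G71450) had 3 to 39 counts in all and no call either way. In CAM, AT1G77200, AT2G44940 and AT3G16280 reached at most 0.853, 0.497 and 0.995 CPM in any library. AT2G25820 had a median of 0.610 CPM there. These members had enough counts to be tested only through reC3 libraries. Their fall was thus in part fixed by that choice, and the count of 6 and the median are descriptions only. TINY2 read 0.313 to 1.65 CPM in CAM MD, 1.64 to 2.28 in CAM ED, 0.667 to 1.86 in CAM MN and 1.99 to 3.74 in CAM EN. In reC3 it read 17.1 to 18.9 CPM at MD, 13.3 to 17.0 at ED, 12.8 to 15.3 at MN and 10.3 to 16.7 at EN. Every CAM library lay below every reC3 library. TINY2 fell by 3.14 ± 0.16 on the log2 scale (SE) in the average (adjusted p = 1.85e-13), and its fold change shrank from -4.09 at MD to -2.24 at EN (interaction of mode and time, adjusted p = 0.0217).

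AT1G01250 showed the same low daytime level in CAM but not at the end of the night. In CAM its 3 libraries read 0.390, 0.157 and 0.331 CPM at MD, 0.379, 0.119 and 0.268 at ED, 0.667, 0.124 and 1.19 at MN, and 2.54, 5.55 and 3.98 at EN. In reC3 they read 4.17, 10.8 and 12.3 CPM at MD, 6.62, 5.56 and 6.38 at ED, 3.60, 5.36 and 4.75 at MN, and 3.95, 4.79 and 3.99 at EN. The groups stood apart at MD, ED and MN and overlapped at EN. Log2 fold changes were -4.92 ± 0.55 at MD (adjusted p = 3.28e-07), -4.52 ± 0.54 at ED and -2.70 ± 0.46 at MN. The EN value of -0.07 was not called, and the differences between modes differed among the times (interaction, adjusted p = 2.64e-05). Within CAM the gene was 3.91 ± 0.57 higher at EN than at ED on the log2 scale (adjusted p = 3.33e-06).

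The remaining 4 tested members of the group were scarce. AT2G25820 fell by 1.56 ± 0.28 on the log2 scale in the average (adjusted p = 4.22e-05), with calls at MD, ED and MN and none at EN. AT1G77200 had 29 counts over the 12 CAM libraries and 258 over the 12 reC3 libraries, which makes reC3 9.17 times higher after scaling (95% counting interval 6.23 to 14.0). AT2G44940 had 9 against 113 counts, a ratio of 12.9 (6.58 to 29.0). AT3G16280 had 19 against 121, a ratio of 6.57 (4.03 to 11.3), and at ED, with 0 against 41 counts, it was at least 14.1-fold lower in CAM. A floor of 3 counts over the group was used for that bound, and intervals and floors cover counting error only. ERF38, which also belongs to DREB group III by identifier and is no member, had 2 counts in CAM and 177 in reC3, and fell at all 4 times. ERF38 too had enough counts to be tested only through reC3 libraries.

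**Figure D2:**
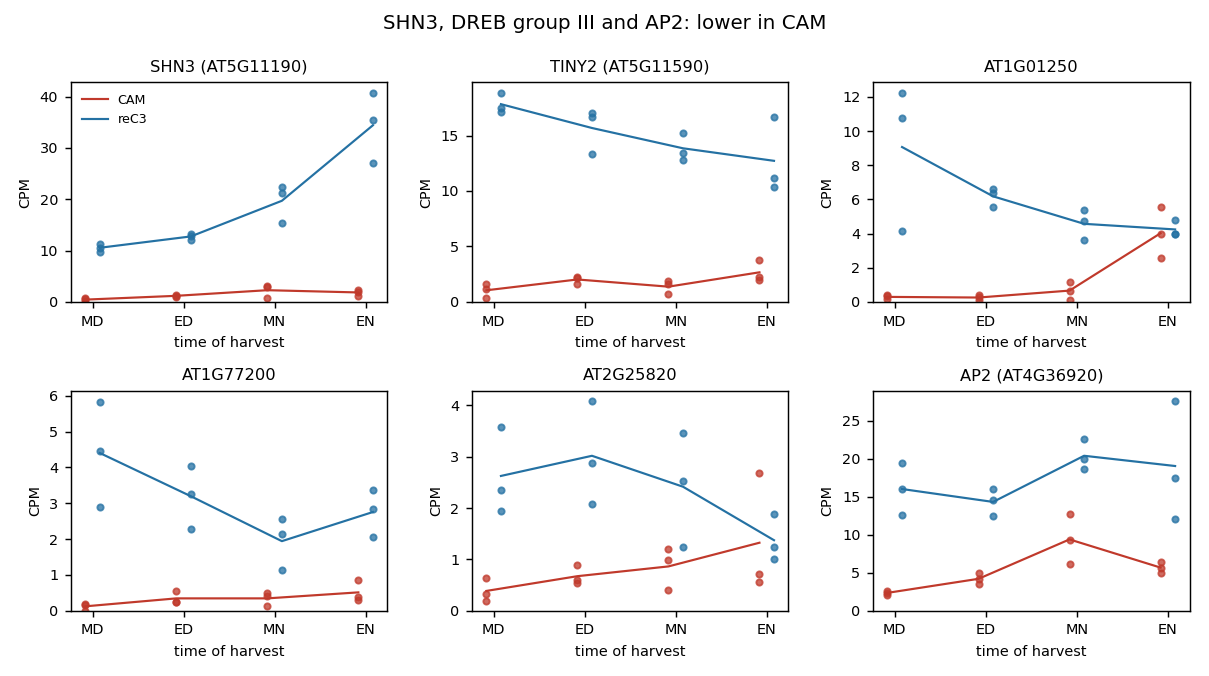
Level in CPM (y axis, linear) of 6 members lower in CAM at the 4 harvest times (x axis). Points are libraries, lines join group means, red is CAM and blue is reC3. SHN3 and TINY2 in CAM stay below every reC3 library at each time, and AT1G01250 in CAM meets the reC3 level only at EN.

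SHN3, the member of ERF group V, belongs to the SHINE clade, which in Arabidopsis raises cutin and wax synthesis. It had the largest fall of the members in the average at 5 CPM or more. CAM libraries read 0.195, 0.470 and 0.662 CPM at MD, 1.39, 0.951 and 1.21 at ED, 0.800, 2.86 and 3.18 at MN, and 2.39, 1.99 and 1.14 at EN. In reC3 the readings were 9.80, 11.4 and 10.5 CPM at MD, 12.9, 13.3 and 12.1 at ED, 15.5, 21.3 and 22.3 at MN, and 27.1, 35.5 and 40.8 at EN. No CAM library reached a reC3 library at any time. SHN3 was lower in CAM by a log2 fold change of -3.79 ± 0.17 in the average (adjusted p = 2.83e-14), and each time was called, from -3.07 at MN and -3.42 at ED to -4.18 at EN and -4.48 at MD. Within reC3 it rose from ED to EN by 1.43 ± 0.24 on the log2 scale (adjusted p = 2.73e-05).

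Cutin and wax genes known in Arabidopsis to respond to SHINE factors were looked up after the SHN3 values had been seen. Of 9 such genes 6 were tested, and all 6 were lower in CAM at every time, where 7.86% of all genes were, with a median of -3.47 on the log2 scale in the average. They are the fatty acid hydroxylases CYP86A4 (-4.81 ± 0.23) and CYP86A7 (-6.26 ± 0.33), the acyltransferases GPAT4 (-1.37 ± 0.08) and GPAT6 (-2.42 ± 0.13), the acyl-CoA synthetase LACS2 (-3.24 ± 0.13) and AT4G24140 (-3.70 ± 0.19). The 3 genes whose group means were most like those of SHN3 were AT1G20130, AT5G33370 and AT4G28780, all described as GDSL-like lipases, with Pearson r of 0.995, 0.994 and 0.994 over the 8 group means of log2 CPM. For TINY2 they were AT2G36420 (0.992), AT1G52910 (0.992) and AT3G07320 (0.988), a glycosyl hydrolase. These coefficients describe 8 group means that share libraries and carry no test.

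WRI1 rose most in CAM among the members at 5 CPM or more, and its differences were largest at night. CAM libraries held 5.07, 2.66 and 2.98 CPM at MD, 1.14, 1.19 and 0.134 at ED, 22.7, 18.5 and 32.1 at MN, and 79.9, 60.3 and 85.2 at EN. In reC3 the same gene stood at 1.09, 0.899 and 0.766 CPM at MD, 1.08, 0.926 and 0.164 at ED, 0.934, 1.62 and 1.16 at MN, and 0.752, 4.43 and 1.83 at EN. The modes overlapped at ED and stood apart at the other 3 times. On the log2 scale CAM was higher by 1.94 ± 0.56 at MD (adjusted p = 0.00728), by 4.28 ± 0.42 at MN (adjusted p = 1.08e-07) and by 4.99 ± 0.40 at EN (adjusted p = 4.64e-09), while the value at ED, 0.11, was not called. The interaction had an adjusted p of 0.000315. Without reC3 EN replicate 2, the highest library of its group, the EN value was 5.81. Within CAM, WRI1 was 6.46 ± 0.44 higher at EN than at ED on the log2 scale, and within reC3 by 1.59 ± 0.59 (adjusted p = 0.0268).

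A list of 12 genes known in Arabidopsis as WRI1 targets, drawn up after the WRI1 values had been seen, held 8 genes higher in CAM at EN and 2 lower, where 24.1% of all genes were called higher and 29.2% lower. Its median at EN was 1.09 on the log2 scale. The plastid pyruvate kinase subunit PKP-BETA1 was 2.58 higher, the sucrose synthase SUS2 1.84 higher and the pyruvate dehydrogenase subunit AT1G01090 2.09 higher at EN, while the acyl carrier protein ACP1 was lower by a log2 fold change of -1.89 and the enoyl reductase MOD1 by -1.87. At MD 4 of the 12 were higher and 1 lower, with a median of 0.08 (22.7% and 21.3% of all genes), at ED 3 were higher and 1 lower, with a median of 0.30 (21.5% and 23.9%), and at MN 4 were higher and 0 lower, with a median of 0.26 (18.1% and 20.5%). A relation between the list and WRI1 was not tested. The genes with group means most like those of WRI1 were AT1G51730, a ubiquitin-conjugating enzyme (r = 0.988), AT5G58000, a reticulon (0.986), and AT2G01330 (0.985).

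AT2G41710, another member with AP2 domains of the double type, was the 1 member higher in CAM at all 4 times, where 4.65% of all genes were. CAM libraries read 7.60, 5.95 and 9.27 CPM at MD, 15.2, 12.7 and 10.2 at ED, 13.9, 8.57 and 14.6 at MN, and 13.6, 14.7 and 10.03 at EN. In reC3 they read 3.63, 2.55 and 1.66 CPM at MD, 3.85, 4.86 and 2.94 at ED, 6.27, 8.10 and 7.32 at MN, and 3.95, 6.20 and 5.99 at EN. At each time the lowest CAM library was above the highest reC3 library. Its log2 fold change was 1.32 ± 0.14 in the average (adjusted p = 2.09e-08), between 0.77 at MN and 1.69 at ED. Most like it in pattern were AT2G43850 (r = 0.991) and AT2G31800 (0.990), both described as integrin-linked protein kinases, and AT2G30100 (0.985).

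**Figure D3:**
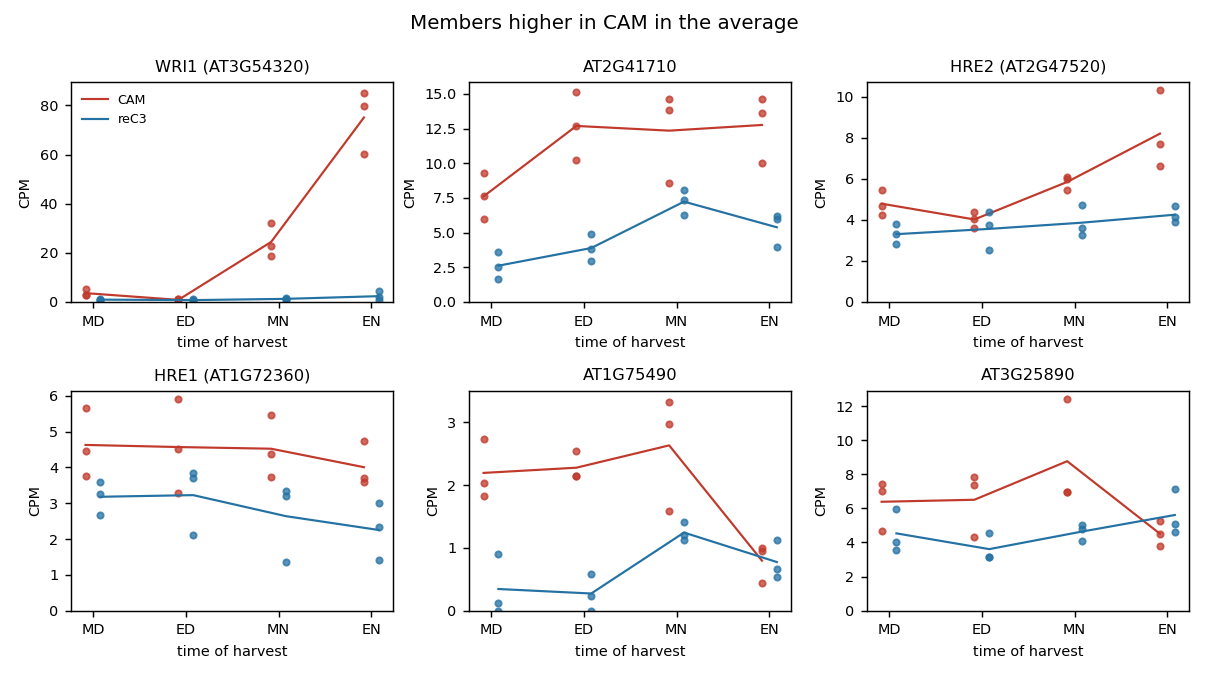
Level in CPM (y axis, linear) of 6 members higher in CAM in the average at the 4 harvest times (x axis). Points are libraries, lines join group means, red is CAM and blue is reC3. WRI1 in CAM climbs from near 1 CPM at ED to 60.3 to 85.2 CPM at EN, while AT2G41710 is above reC3 at every time and AT1G75490 and AT3G25890 meet the reC3 libraries at EN.

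Of the other 4 tested members with 2 AP2 domains, 2 rose and 2 fell. AP2, the floral organ and seed size regulator, read 2.04 to 2.65 CPM in CAM MD against 12.6 to 19.4 in reC3 MD. At ED the ranges were 3.49 to 4.93 and 12.4 to 16.0 CPM, at MN 6.16 to 12.7 and 18.7 to 22.6, and at EN 4.94 to 6.40 and 12.1 to 27.6. The modes did not overlap at any time. AP2 had a log2 fold change of -1.85 ± 0.14 in the average (adjusted p = 1.34e-10), from -2.76 at MD to -1.13 at MN (interaction, adjusted p = 0.0174). ANT, which promotes organ growth, changed less, by -0.36 ± 0.13 in the average (adjusted p = 0.0221), and among single times it was called at MN only (-1.06 ± 0.25). AT1G72570 was 1.03 ± 0.30 higher in CAM. BBM, an embryo regulator, was at 82 counts over the CAM libraries and 14 over the reC3 libraries, a ratio of 5.68 (counting interval 3.20 to 10.9). In reC3, AT1G72570 and BBM reached at most 1.13 and 0.532 CPM in any library. Both had enough counts to be tested only through CAM libraries, so their rise was in part fixed. PLT2 and SNZ were too low to be tested, with 102 and 92 counts. The related floral repressors RAP2.7, TOE2 and TOE3, which the rule does not match, also fell: RAP2.7 and TOE3 had log2 fold changes of -2.28 and -1.51 in the average, and TOE2 was 4.38 times higher in reC3 (counting interval 3.09 to 6.35). With AP2, TINY2 and SHN3, AT1G77200 made up the 4 members lower at all 4 times, where 7.86% of all genes were.

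DREB group I (6 of its 7 members are listed as A-6 in the table) held AT1G22190, whose difference between modes was largest at the end of the day. At ED it read 2.27, 2.26 and 2.42 CPM in CAM and 21.2, 19.1 and 18.3 CPM in reC3. At MD the CAM libraries read 43.5, 37.4 and 31.3 CPM and the reC3 libraries 23.9, 31.5 and 37.8, and at EN the means were 34.4 and 43.4 CPM. The ED libraries of CAM stood far below all others, and the modes overlapped at MD. The log2 fold change was -3.07 ± 0.19 at ED (adjusted p = 3.24e-10), -0.77 ± 0.15 at MN (adjusted p = 0.000245), and 0.26 at MD and -0.34 at EN, neither called. Its interaction of mode and time had the smallest p of all tested members (adjusted p = 3.27e-08). From ED to EN it rose by 3.88 ± 0.19 on the log2 scale in CAM and by 1.15 ± 0.15 in reC3.

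AT2G22200 and AT1G36060 of the same group fell together, by a log2 fold change of -0.75 ± 0.08 (adjusted p = 7.61e-08) and -0.81 ± 0.13 (adjusted p = 1.30e-05) in the average. AT2G22200 averaged 71.2, 40.01, 28.0 and 24.9 CPM in CAM at MD, ED, MN and EN, and 84.1, 74.2, 61.0 and 41.5 CPM in reC3. Both were called lower at ED, MN and EN and not at MD. The counts of AT2G22200 were 7.54 to 9.03 times those of AT1G36060 in all 8 groups. Whether these identifiers share the reads of the same Talinum transcripts was not tested. AT1G64380 was the 1 tested member of the group that rose in the average (0.65 ± 0.27, adjusted p = 0.0402), and it was 1.77 ± 0.50 higher at MN, where reC3 replicate 2 was the highest of its group at 2.49 CPM and the value without it was 2.43. AT2G20880 was lower at EN (-1.85 ± 0.77, adjusted p = 0.0464), and AT4G13620 was not called between modes.

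DREB groups II and IV, the latter with the DREB2 factors of drought and heat, held few called members. In group II, 0 of 3 tested members were called in the average by edgeR and 0 by DESeq2, 0 had an unadjusted p under 0.05, and AT1G21910 alone was called at a single time, at EN, by 0.70 ± 0.23 (adjusted p = 0.0138). DREB2C of group IV had a log2 fold change of -0.02 in the average and was not called at any time, but it was lower at night than at midday in either mode, by -2.64 ± 0.49 in CAM and -2.60 ± 0.55 in reC3. AT1G75490 of the same group was higher in CAM, at 2.73, 2.04 and 1.82 CPM at MD against 0.907, 0 and 0.128, and at 2.15, 2.14 and 2.55 CPM at ED against 0.241, 0.579 and 0. The modes did not overlap at MD, ED or MN, and met at EN. Its log2 fold change was 1.68 ± 0.30 in the average (adjusted p = 4.76e-05). In reC3 it reached at most 1.41 CPM in any library. It had enough counts to be tested only through CAM libraries, so its rise was in part fixed. DREB2B, which the rule does not match, ran from -1.42 at ED to 1.86 at EN on the log2 scale and was not called in the average.

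At the end of the day 16 members were lower in CAM, 37.2% of those tested against 23.9% of all genes, and 3 were higher, where 21.5% of all genes were. The members' median at ED was -0.44 on the log2 scale, and that of all genes 0.02. DREB group III accounted for 6 of the 16. Of these, AT1G77200, AT2G25820, AT2G44940 and AT3G16280 had enough counts to be tested only through reC3 libraries. The count of 16 and the median at ED were thus in part fixed. ERF group VIII accounted for 5 of the 16. This group, of which the table lists 8 members as B-1, includes ERF3, ERF8, ERF10 and ERF12, repressors that carry an EAR motif, and 8 of its 10 members were tested. In the average 0 of these 8 were called by edgeR and 0 by DESeq2, and 1, ERF3, had an unadjusted p under 0.05.

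ERF8 read 2.40, 2.26 and 4.56 CPM in CAM ED against 4.69, 8.10 and 11.3 in reC3 ED, and 15.7, 25.8 and 19.2 CPM in CAM MN against 5.74, 7.86 and 9.37 in reC3 MN. CAM was thus the lower mode at dusk and the higher one at midnight, without overlap at either time. The log2 fold change was -1.37 ± 0.41 at ED (adjusted p = 0.00943) and 1.40 ± 0.35 at MN (adjusted p = 0.00342), and the interaction had an adjusted p of 0.00243. AT1G80580 went the same way, at -0.83 ± 0.33 at ED (adjusted p = 0.0482), 0.94 ± 0.27 at MN and 0.72 ± 0.29 at EN. ERF12 was 0.70 ± 0.27 higher in CAM at MD and lower at ED by -0.93 ± 0.23. ERF10 was at 4.67, 2.85 and 5.37 CPM in CAM ED against 7.46, 11.9 and 10.3 in reC3 ED, a log2 fold change of -1.21 ± 0.26 (adjusted p = 0.000774), with no call at the other times. ERF3 was lower at ED by -0.61 ± 0.19. The interaction was called for ERF8, ERF10, ERF12 and AT1G80580 and not for ERF3.

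**Figure D4:**
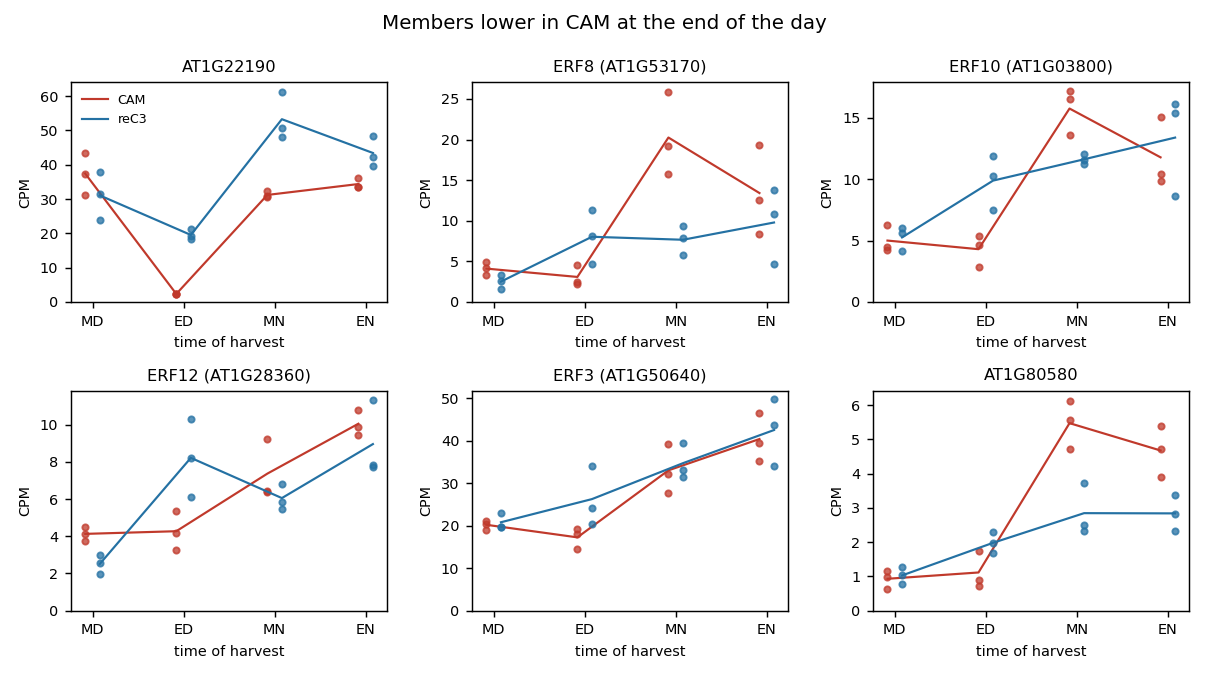
Level in CPM (y axis, linear) of 6 members that were lower in CAM at ED, at the 4 harvest times (x axis). Points are libraries, lines join group means, red is CAM and blue is reC3. AT1G22190 in CAM drops to 2.26 to 2.42 CPM at ED, and ERF8 and AT1G80580 in CAM lie below reC3 means at ED and above every reC3 library at MN.

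These 5 members were higher at MN than at MD in CAM and in reC3, and higher at EN than at ED in CAM. From ED to EN in CAM the log2 change was 2.14 ± 0.40 for ERF8, 2.07 ± 0.31 for AT1G80580, 1.47 ± 0.26 for ERF10, 1.24 ± 0.23 for ERF12 and 1.23 ± 0.19 for ERF3. In reC3 ERF3 alone of the 5 was called higher at EN than at ED, by 0.69 ± 0.18. AT1G12890 ran the other way: it was 1.29 ± 0.41 higher in CAM at MD (adjusted p = 0.0131), at 5.27, 5.17 and 5.96 CPM against 2.36, 1.05 and 3.19, and fell by 3.03 ± 0.46 on the log2 scale from MD to MN in CAM. The MD call was lost without reC3 MD replicate 2 (0.96, adjusted p = 0.0832). AT1G28160 and LEP, the LEAFY PETIOLE factor, were not called between modes.

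ERF group VII holds the factors whose stability depends on oxygen. HRE2 read 4.23 to 5.46 CPM in CAM MD, 3.62 to 4.40 in CAM ED, 5.47 to 6.09 in CAM MN and 6.63 to 10.3 in CAM EN, against 2.81 to 3.81, 2.53 to 4.40, 3.24 to 4.75 and 3.90 to 4.70 CPM in reC3. The modes were apart at MD, MN and EN and overlapped at ED. It rose by 0.57 ± 0.11 in the average (adjusted p = 0.000158) and was called at MN and at EN (0.95 ± 0.22). HRE1 rose by 0.65 ± 0.16 in the average (adjusted p = 0.00132) with no call at a single time. EBP was called at EN alone, 0.81 ± 0.26 higher in CAM (adjusted p = 0.0109), and RAP2.12 of this group, no member, was not called in the average (0.23). The counts of HRE2 and HRE1 stood at 0.889 to 2.11 in ratio over the groups.

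Genes of the hypoxia response and of the N-degron pathway, which breaks down the factors of group VII, were also counted. Of 11 tested 3 rose and 5 fell in the average, where 32.3% and 32.5% of all genes did, with a median of -0.17. At EN 6 were higher and 3 lower (24.1% and 29.2% of all genes), with a median of 1.27. AT4G10270, described as a wound-responsive protein, rose by 3.70 ± 0.24 on the log2 scale. The scarce LBD41 had 75 counts in CAM against 7 in reC3 and was 10.4 times higher (counting interval 4.80 to 26.7). LBD41 had enough counts to be tested only through CAM libraries, so its rise was in part fixed. The pyruvate decarboxylases PDC2 and AT4G33070 fell, with log2 fold changes of -1.46 ± 0.24 and -1.42 ± 0.24. PRT6, the ubiquitin ligase of the pathway, was at 0.00 in the average. It was called higher in CAM at MD, and its interaction of mode and time was called.

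In ERF group IX, which holds GCC box factors of defence and jasmonate responses, 5 of 10 members were tested and ERF-1 alone was called in the average (-0.80 ± 0.27, adjusted p = 0.0125). ERF-1 read 2.15, 3.29 and 2.98 CPM in CAM MD against 7.44, 6.74 and 15.2 in reC3 MD, with no overlap, and its log2 fold change there was -1.80 ± 0.41 (adjusted p = 0.00106). At MN it was -1.50 ± 0.55, and at ED and EN it was not called. ERF2 had 40 counts over the CAM libraries and 86 over the reC3 libraries, a ratio in favour of reC3 of 2.22 (counting interval 1.51 to 3.31) that comes with its MD libraries. At MD it had 12 counts in CAM against 60 in reC3 and was lower by -2.09 ± 0.61 (adjusted p = 0.00752). ED had 6 against 7 counts and MN 8 against 18, neither called, and EN had 14 against 1, a ratio in favour of CAM of 12.5 (1.90 to 529). The fitted average, -0.08, was not called. ERF13, ERF6 and AT5G07580 were not called between modes in the average or at any time.

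In ERF group VI, AT3G25890 was 0.49 ± 0.15 higher in CAM in the average (adjusted p = 0.00532), with calls at ED and MN. ABR1 of group X, named as a repressor of abscisic acid responses, had a log2 fold change of -0.52 in the average that was not called. AT4G13040, the soloist that stands outside the branches, fell by 1.07 ± 0.14 in the average (adjusted p = 5.54e-07). At EN it read 4.79, 7.11 and 5.30 CPM in CAM and 12.0, 23.9 and 21.8 CPM in reC3, the time of its largest difference (-1.74 ± 0.26, adjusted p = 9.37e-06). AT2G20350 and AT5G67000, listed as B-6, had no count.

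Over the other times, counts of called members were as follows. Members that could be tested only through a single mode are among them, so these counts are in part fixed too. At MD 5 members were higher (22.7% of all genes) and 10 lower (21.3% of all genes). At MN 9 were higher (18.1% of all genes) and 14 lower (20.5% of all genes), and at EN 9 were higher (24.1% of all genes) and 9 lower (29.2% of all genes), 20.9% of members in either direction. The difference between modes varied among the times for 16 members, 37.2% of those tested, where 46.8% of all genes were called.

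Within a mode, members were more often higher at night than lower. In CAM 18 members were higher at MN than at MD and 7 lower, where 25.6% and 26.5% of all genes were. From ED to EN in CAM 18 rose and 5 fell, where 31.5% and 32.2% of all genes did. In reC3 14 were higher at MN than at MD and 9 lower (21.7% of all genes in either direction), and from ED to EN 11 rose and 5 fell (29.1% and 28.8% of all genes). The 11 that rose were 25.6% of members, below the share of all genes. With the libraries of reC3 ED and EN alone, 5 rose and 6 fell. The members' median from MD to MN was 0.70 in CAM and 0.24 in reC3 on the log2 scale, and from ED to EN 0.67 and 0.40, while the medians of all genes lay between -0.01 and 0.03. ERF13 and AT5G07580 of group IX were higher at night in all 4 of these contrasts and ERF6 in 3 of them. ERF13 was 2.59 ± 0.56 higher at EN than at ED in CAM, and 2.17 ± 0.58 higher at MN than at MD in CAM. In reC3 the rise of ERF13 from MD to MN, 2.03 ± 0.56, rested on replicate 3 of reC3 MN, without which it was 0.81 (adjusted p = 0.177), and that of ERF6, 2.10 ± 0.52, was 1.39 without that library. ERF-1 and EBP ran the other way from MD to MN in reC3, by a log2 change of -2.52 ± 0.42 and -1.23 ± 0.22.

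**Figure D5:**
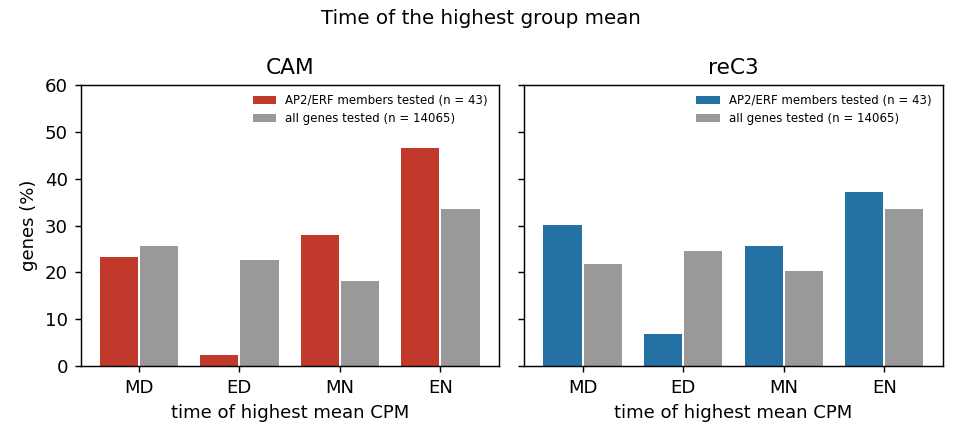
Share of genes (y axis, percent) whose mean CPM was highest at each harvest time (x axis), for the 43 tested members (coloured bars) and for all 14065 tested genes (grey bars), in CAM (left) and reC3 (right). Few members had their highest mean at ED, 2.33% in CAM and 6.98% in reC3, against 22.7% and 24.5% of all genes.

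The end of the day was seldom the time of a member's highest mean. In CAM 20 members were highest at EN, 12 at MN, 10 at MD and 1 at ED. In reC3 the numbers were 16, 11, 13 and 3. The 1 member highest at ED in CAM was AT1G44830, and the 3 in reC3 were AT2G25820, AT2G44940 and HRE1, named here after their values were seen. As MD and MN come from a different set of libraries than ED and EN, these shares have no test.

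Upstream of the ERF branch stand the genes of ethylene perception and signalling. Of its 13 tested genes 9 rose in the average and 1 fell, where 32.3% of all genes rose and 32.5% fell, with a list median of 0.42 on the log2 scale. The receptors ETR2, EIN4 and ERS2 rose by 2.38 ± 0.13, 2.39 ± 0.14 and 2.49 ± 0.16 on the log2 scale, and RTE1, a regulator of the receptor ETR1, by 1.38 ± 0.09. These 3 receptors had near equal changes, and whether they share reads was not tested. EIN3 and EIL1, the transcription factors that act above the ERF genes, rose by 0.63 ± 0.10 and 0.63 ± 0.09, while ETR1 fell slightly (-0.19 ± 0.08). The interaction of mode and time was called for ETR2, EIN4, ERS2 and EIL1. At ED 4 of the 13 genes were higher, ETR2, EIN4, ERS2 and RTE1, and 0 lower (21.5% and 23.9% of all genes). Of 7 tested genes of ethylene synthesis 1 rose and 3 fell: the synthase ACS7 by 1.01 ± 0.28, and AT1G12010, EFE and AT1G77330 of the last step, ACC oxidase, with log2 fold changes of -4.17 ± 0.25, -1.13 ± 0.11 and -0.69 ± 0.11. The synthases ACS1, ACS2 and ACS6 were not called in the average. They were higher in CAM at MD and lower at MN, and their interaction of mode and time was called.

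Downstream of the DREB branch, 3 of 13 listed targets could be tested, and all 3 rose in the average, where 32.3% of all genes did. The dehydrin COR47 rose by 2.12 ± 0.18, the galactinol synthase GolS3 by 1.94 ± 0.23 and AT4G30650 by 0.34 ± 0.13. At ED COR47 was not called (0.46), and at MD it was 3.84 higher. Of the 4 tested regulators of DREB2A and the CBF factors 0 were called in the average by edgeR and 0 by DESeq2, and 0 had an unadjusted p under 0.05: DRIP1 stood at -0.28, SR1 at 0.11, BPM6 at 0.13 and HOS1 at -0.04. Among the 17 tested AP2/ERF genes that the rule does not match, 3 rose (RAP2.1, DEAR3 and ERF110) and 6 fell. Of all genes 32.3% rose and 32.5% fell. The 6 include RAV1 and TEM1, which carry a B3 domain beside the AP2 domain. RAV1 had a log2 fold change of -5.36 ± 0.25, and TEM1 had 18 against 624 counts, being 35.7 times higher in reC3 (counting interval 22.4 to 60.7). TEM1 and ERF38, also among the 6, had enough counts to be tested only through reC3 libraries. The count of 6 was thus in part fixed.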

How the data were processed

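Raw read counts per Arabidopsis identifier were deposited by the authors as 1 table, unscaled per the file headers. CASAVA 1.8.2 and TAIR10 come from the submitters' processing notes, and for the aligner and the counting tool the name is not given in the sources used here. Libraries were TruSeq v2 from polyadenylated RNA, per the labels' protocols, a kit that does not mark strand. A further 40 columns of values were not used. Libraries held 4310225 to 8756145 counts, and low counts limit the scarce members.

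The test was that of edgeR 4.0.16 under R 4.3.3: TMM scaling, filterByExpr (14065 genes kept), 1 mean per group over all 24 libraries, the robust quasi-likelihood test, and Benjamini-Hochberg adjustment over all tested genes, with calls at 0.05. Every adjusted p is from this test. SE is the fold change on the log2 scale divided by the root of F. The average is the mean of the 4 differences between modes, and the interaction asks whether they differ. Where a group had 3 counts or fewer, ratios of scaled pooled counts with exact 95% intervals are given. On simulated counts the scripts were tested for recovery of changed genes.

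Members were grouped into subfamilies by Arabidopsis identifier. Named genes are the largest called changes per contrast at 5 CPM or more, the smallest interaction p, the member with most counts per subfamily and up to 4 genes per pathway list. Other members are named beside them for completeness. The members and lists were chosen with earlier results of these data known. Alternatives were RLE scaling, no filter, the replicate number in the fit, the compared groups alone, DESeq2 1.42.0, a stricter threshold, each library left out and, added later, the average without EN. The replicate numbers were checked for pairing. Sequences were not used here.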

Additional observations from a re-analysis of the deposited data

Results flagged for a closer look

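For 16 members the difference between modes itself differed among the 4 times in edgeR's test, the interaction of mode and time, and this is the reason for their listing. The adjusted p was 3.27e-08 for AT1G22190, 2.64e-05 for AT1G01250 and 0.000315 for WRI1. It was 0.00243 for ERF8, 0.00297 for ERF12, 0.00529 for ERF10 and 0.00757 for AT1G80580, all of ERF group VIII. ANT had 0.00775 and AP2 0.0174, and AT2G22200 had 0.0216. TINY2 had 0.0217, AT2G25820 0.0466 and AT1G75490 0.0297. In ERF groups VII and IX the values were 0.0329 for EBP, 0.0131 for ERF2 and 0.0295 for ERF-1. As 46.8% of all tested genes were called by the same test, these calls do not set the members apart. No group had the 4 libraries needed to look for single outlying samples.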

How the results depend on the processing

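Of 67 results of named members under all alternatives, 57 kept direction and call throughout, and of 1937 comparisons 1909 kept both. RLE scaling, no filter, DESeq2 and the replicate block changed none of the 67. Between modes at a time, libraries of the same replicate number correlated in their deviations from the group means at -0.107 to 0.264 (median -0.01, 12 pairs), and those of different numbers at -0.225 to 0.111 (median 0.02, 24 pairs). The 3 same-number pairs at MN were all positive (0.264, 0.0869 and 0.138), and within reC3 from ED to EN 1 such pair reached 0.367. In no comparison were all 3 over 0.1, so the number was not taken as a pairing. With the replicate block 9 members were higher and 14 lower in the average, as without it, and 17 had an interaction. No named result that was called turned its direction. Values near 0 did: the average without EN, added after the data were seen, gave -0.0778 for AT1G21910, 0.22 for DREB2C and -0.0622 for ERF13, and leaving out single libraries moved DREB2C between -0.12 and 0.26. With the libraries of the 2 groups alone, where fewer libraries enter the fit, 4 members were higher and 5 lower at EN. From ED to EN in reC3, 5 were then higher and 6 lower. At an adjusted p under 0.01 and a change of at least 2-fold, a stricter threshold by construction, 5 members were higher and 9 lower in the average, 3 higher at MD, 4 higher and 8 lower at MN, 3 higher and 5 lower at EN, 9 higher from MD to MN in CAM and 2 lower from ED to EN in CAM. In reC3 5 were lower from MD to MN, and 4 were higher and 3 lower from ED to EN. With adjusted p under 0.01 8 had an interaction. Leaving out each library in turn gave 8 to 10 higher and 13 to 16 lower in the average, 4 to 6 and 10 to 11 at MD, 2 to 3 and 13 to 16 at ED, 6 to 10 and 11 to 14 at MN, and 4 to 10 and 7 to 10 at EN. From MD to MN it gave 12 to 19 and 6 to 7 in CAM and 12 to 15 and 6 to 9 in reC3, from ED to EN 17 to 18 and 4 to 6 in CAM and 6 to 12 and 5 to 6 in reC3, and 11 to 19 interactions. The calls of AT1G36060 from ED to EN in CAM and AT2G22200 from MD to MN in reC3 were each lost without any of 3 libraries. Members under about 1 CPM are limited by depth.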
